A study of Homo sapiens with 6 samples.

Results

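The long arm of chromosome 1 was described from position 210 Mb to its end, on build GRCh38, in ATAC-seq peak lists of U937 cells. All listed intervals that started at 210000000 or beyond were taken, which gave 1441 peaks of the 41450 on chromosomes 1-22, X and Y. Of these, 128 were in ΔNSPs clone 1, 1175 in ΔNSPs clone 2, 138 in ΔNSPs clone 3, and 0 in each of control lines 1, 2 and 3. The stretch was chosen because the number of peaks by position and by clone stood out in these same lists. The number, position and overlap of its peaks are therefore given as a description, with no test of the clones against each other or of the stretch against the rest of chromosome 1.

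U937 is a human monocytic cell line derived from a histiocytic lymphoma, and ATAC-seq marks open DNA by the insertion of sequencing adapters with a transposase. The ΔNSPs clones were depleted of 3 neutrophil serine proteases at once, namely ELANE (neutrophil elastase), PRTN3 (proteinase 3) and CTSG (cathepsin G), and the control lines carried control plasmids (n = 3 each). Per the labels, both groups were U937 derivatives grown under geneticin, treated with DNase, washed and cryopreserved before the assay. Each ΔNSPs library came from 1 clone, so a feature of that clone and an effect of the depletion cannot be told apart in a single library.

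The outer long arm of chromosome 1 carries housekeeping genes, long tissue-specific genes and, near its tip, a cluster of olfactory receptor genes. In ATAC-seq of most cell types, promoters of active housekeeping genes are open and give peaks at gene starts. Peaks within gene bodies and between genes mark enhancers and other regulatory elements, or weaker local enrichment of reads. A peak within 1000 bp of either outer end of a protein-coding gene is called a gene-end peak here. Peaks of the remaining sequence are called peaks away from gene ends.

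The promoters of 4 genes are shown because 3 of them lie at sites with a peak in all 3 clones, against many sites with a peak in 1 clone, and the remaining one carried no peak. They belong to the first genes of a ranking by −log10 q that have a RefSeq promoter entry (GRCh38.p14, 250 bases before to 50 after the gene start). Capitals mark matches on either strand to a searched motif, which were the GC box GGGCGG, the CCAAT box, the E-box CACGTG, the cAMP response element TGACGTCA, the ETS motif CCGGAAG, the TATA motif TATAAA and the palindromic NRF1 motif. IBA57 lies at chr1:228165554-228165853 on the plus strand, DESI2 at chr1:244652876-244653175 on the plus strand, COG2 at chr1:230642231-230642530 on the plus strand and HHIPL2 at chr1:222548055-222548354 on the minus strand.
IBA57: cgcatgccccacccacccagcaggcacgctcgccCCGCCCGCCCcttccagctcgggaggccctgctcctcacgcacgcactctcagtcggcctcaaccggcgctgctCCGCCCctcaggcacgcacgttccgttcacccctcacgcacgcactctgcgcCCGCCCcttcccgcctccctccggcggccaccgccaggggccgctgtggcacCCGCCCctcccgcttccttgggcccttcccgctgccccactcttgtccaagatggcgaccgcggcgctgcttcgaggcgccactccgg
DESI2: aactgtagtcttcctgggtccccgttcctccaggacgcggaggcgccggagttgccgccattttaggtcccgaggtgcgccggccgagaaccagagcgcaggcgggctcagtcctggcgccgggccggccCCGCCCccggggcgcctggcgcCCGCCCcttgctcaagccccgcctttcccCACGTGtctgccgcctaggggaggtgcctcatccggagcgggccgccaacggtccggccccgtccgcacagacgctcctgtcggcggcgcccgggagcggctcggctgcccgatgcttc
COG2: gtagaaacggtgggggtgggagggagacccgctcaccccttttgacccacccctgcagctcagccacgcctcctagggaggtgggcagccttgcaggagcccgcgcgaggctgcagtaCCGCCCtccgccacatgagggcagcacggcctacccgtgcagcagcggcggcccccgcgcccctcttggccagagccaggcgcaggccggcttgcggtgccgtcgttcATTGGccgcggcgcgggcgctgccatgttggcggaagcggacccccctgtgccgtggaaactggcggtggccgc
HHIPL2: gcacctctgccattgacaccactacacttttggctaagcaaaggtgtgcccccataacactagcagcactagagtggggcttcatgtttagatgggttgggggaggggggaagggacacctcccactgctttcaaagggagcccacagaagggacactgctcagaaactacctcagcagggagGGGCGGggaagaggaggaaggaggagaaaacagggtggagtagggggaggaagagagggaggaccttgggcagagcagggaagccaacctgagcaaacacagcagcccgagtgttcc
The IBA57 window had 5 matches to GGGCGG and a GC content of 74.7%. The DESI2 window had 2 matches to GGGCGG and 1 to CACGTG, also at 74.7% GC. The COG2 window had 1 match each to GGGCGG and CCAAT, at 72.7% GC. In these windows the peaks of clones 1, 2 and 3 covered 220, 199 and 83 bp at IBA57, 300, 89 and 241 bp at DESI2, and 212, 166 and 213 bp at COG2. The HHIPL2 window had 1 match to GGGCGG, 57.7% GC and no peak in any clone, because the HHIPL2 peaks described below lay at the other end of the gene.

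The clones differed in where along chromosome 1 their peaks lay. From 210 Mb on, clone 2 had 30.2 peaks per Mb against 9.49 per Mb on chromosome 1 before 210 Mb, a ratio of 3.18. Clone 3 had 3.54 against 0.971 per Mb, a ratio of 3.65. Clone 1 went the other way, with 3.29 against 6.84 per Mb, a ratio of 0.480. The stretch held 8.18% of the chromosome 1 peaks of clone 1 (exact Clopper-Pearson 95% interval 6.87 to 9.65), 37.1% of those of clone 2 (35.4 to 38.8) and 40.4% of those of clone 3 (35.1 to 45.8). These intervals cover counting error only. Of the whole lists it held 0.897, 4.70 and 6.31% in clones 1, 2 and 3. The stretch had 6.50 protein-coding genes per Mb against 8.61 before 210 Mb. Per protein-coding gene the ratio was 0.637 in clone 1, 4.22 in clone 2 and 4.83 in clone 3. With the edge moved to 200 Mb the ratio per Mb of clone 1 was 0.867.

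The control lines gave no peak anywhere on chromosome 1. The mean number of peaks from 210 Mb on was 480 ± 602 in the clones and 0 ± 0 in the control lines (SD, n = 3 each). On log10(peaks + 1) the group means differed by 2.44 (clones minus control lines). No p is given, since these counts chose the stretch and the control counts are all 0. All 3 clones had more peaks than all 3 control lines, but the control lists were short everywhere, with 13, 4 and 2 peaks over chromosomes 1-22, X and Y against 14262, 24981 and 2188 in clones 1, 2 and 3. Depths of the libraries were not given in the files, so a share of 0 has no limit here.

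Seen in steps of 5 Mb, clone 2 was dense throughout the stretch, while clone 3 had its highest count in a single step. Clone 2 had 78 to 185 peaks per step from 210 Mb on, with a median of 155, against a median of 39 before 210 Mb. None of the 42 steps before 210 Mb exceeded 185, and 10 of the 42 reached 78. Clone 3 had 7 to 49 peaks per step, with a median of 12.5, against a median of 2 and a maximum of 27 before. Clone 1 had 0 to 26, with a median of 16.5, against a median of 22 and a maximum of 107 before. The busiest steps of clones 1, 2 and 3 before 210 Mb were the same one at 25 to 30 Mb. On the other chromosomes, 11 of 568 steps (1.94%) reached the clone 2 median of 155, and 34 (5.99%) reached the clone 3 median of 12.5. The highest such steps were on chromosome 19, with 243 peaks in clone 2 and 65 in clone 3.

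**Figure D1:**
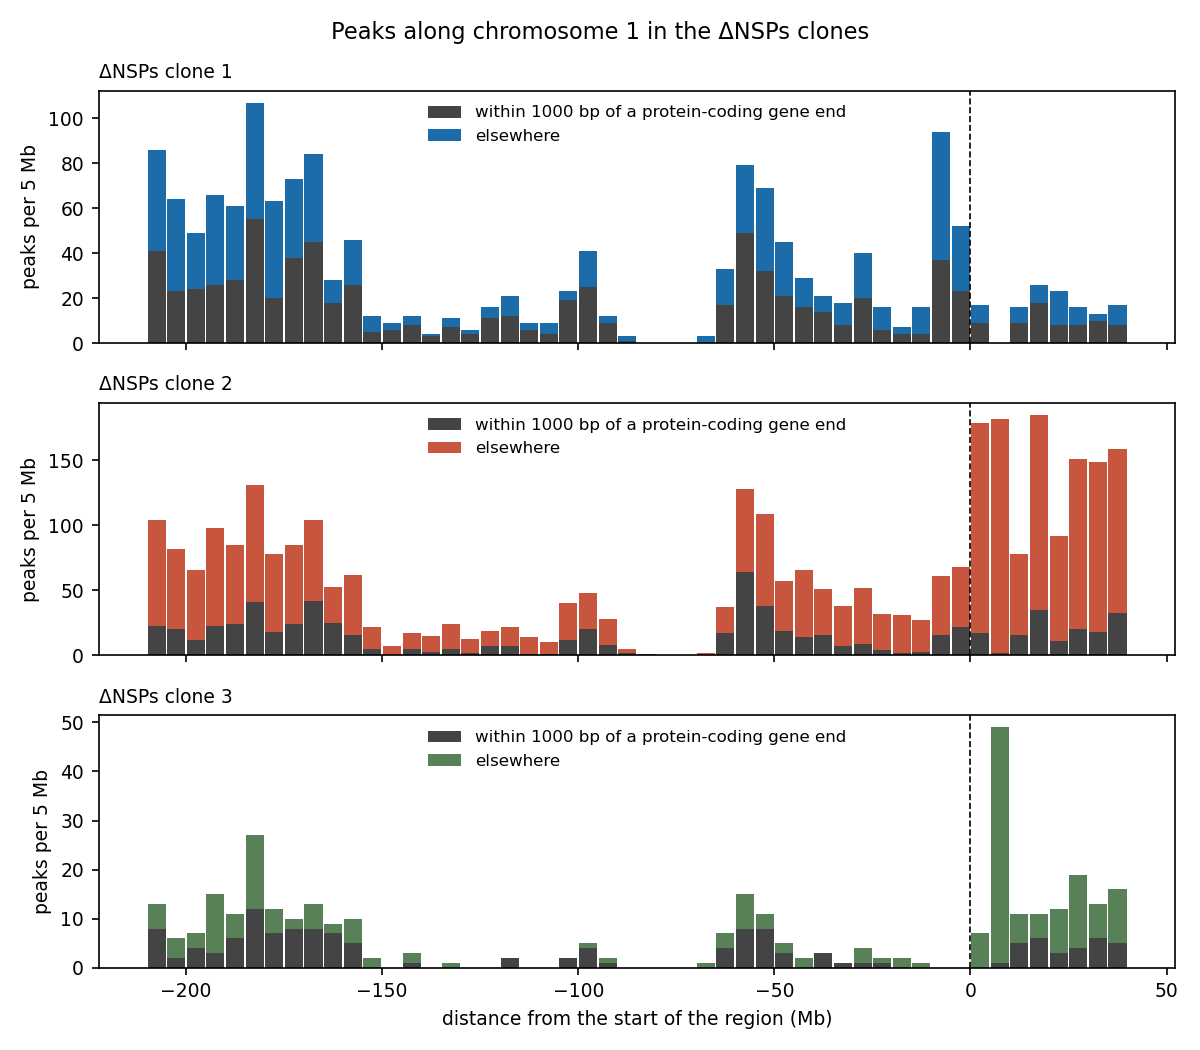
Peaks per 5 Mb along chromosome 1 in ΔNSPs clones 1, 2 and 3 (panels with separate vertical scales), against the distance in Mb from 210 Mb (dashed line). Dark bars are gene-end peaks and coloured bars are peaks elsewhere; to the right of the line clone 2 sits between 78 and 185 peaks per step, and clone 3 reaches 49 in a single step.

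The edge near 210 Mb differed between the clones. In clone 2 the last peak outside was at 209938193 to 209938293, at a gene end, with a fold enrichment of 3.87 and a pile-up of 25 reads. Its first peak inside was at 210049078 to 210049153, in a gene body, with a fold of 3.70 and a pile-up of 10 reads. Clone 2 had no peak from 208 to 209 Mb, 19 from 209 to 210 Mb and 57 from 213 to 214 Mb, and it already had 22 from 205 to 206 Mb. In clone 3 the last peak outside, at 196789261 to 196789384, was 13.5 Mb away from the first inside, at 210240314 to 210240429. Between these positions clones 1 and 2 had 161 and 153 peaks. In clone 1 the last peak outside was at 209784385 to 209784607, with a fold of 2.72, and the first inside at 210328885 to 210329139, with a fold of 3.81. Clone 1 had 146 peaks from 200 to 210 Mb, 17 from 210 to 220 Mb and 111 beyond 220 Mb.

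Peak-free stretches gave the same picture at a finer scale. From 210 Mb on, neighbouring peaks were a median of 0.132 Mb apart in clone 1, 0.0158 Mb in clone 2 and 0.123 Mb in clone 3. The longest stretch without a peak was 5.98 Mb in clone 1 (214428056 to 220404801), 0.484 Mb in clone 2 (232127417 to 232611070) and 2.22 Mb in clone 3 (212665593 to 214884874). The longest stretch of clone 1 from 190 Mb on was this same one, and it contained the densest step of clone 3.

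In the second of these steps, from 5 to 10 Mb beyond the edge, clones 1, 2 and 3 had 0, 182 and 49 peaks. Of these, 180 in clone 2 and 48 in clone 3 were away from gene ends. The step held 35.5% of the clone 3 peaks from 210 Mb on and 15.5% of those of clone 2. The peaks of this step merged into 230 regions, and 1 of 49 clone 3 peaks overlapped a clone 2 peak. For comparison, 37.7% of all clone 3 peaks from 210 Mb on and 24.1% of those away from gene ends did so. The clone 3 peaks were small and uniform, with 10 to 18 reads (median 12) and folds of 3.48 to 6.54. Those of clone 2 had 7 to 98 reads, with a median of 11. The step contains 12 protein-coding genes. ESRRG, an orphan nuclear receptor, held 0, 25 and 3 peaks in clones 1, 2 and 3. KCNK2, a potassium channel, held 0, 15 and 3, and LYPLAL1, a lysophospholipase-like gene, held 0, 8 and 4. RRP15, a ribosome assembly factor, held no peak in any clone.

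Relative to genes, the added peaks of clones 2 and 3 lay mostly, but not only, away from gene ends. In clone 2 gene-end peaks were 12.9% of peaks from 210 Mb on (Clopper-Pearson 95% interval 11.1 to 15, counting error only) against 29.0% before 210 Mb (27.0 to 31.0). In clone 3 they were 21.7% (15.2 to 29.6) against 53.4% (46.3 to 60.4), and in clone 1 54.7% (45.7 to 63.5) against 49.8% (47.1 to 52.4). Away from gene ends the peak density from 210 Mb on was 3.90 times that before in clone 2, 6.13 times in clone 3 and 0.433 times in clone 1. At gene ends the same ratios were 1.42, 1.48 and 0.528. Gene bodies held 43.1% of the clone 2 peaks from 210 Mb on against 37.8% before, and sequence outside all genes held 30.6% against 24.8%. In clone 3 gene bodies held 29.7% against 25.5%, and sequence outside genes 37.0% against 14.7%.

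Long genes gave an example. Of the 19 protein-coding genes of 300 kb or more from 210 Mb on, a length chosen after the values were seen, all 19 held a clone 2 peak. Of the 39 such genes of chromosome 1 before 210 Mb, 29 held one. In clones 1 and 3, 9 of the 19 held a peak, against 15 and 4 of the 39. The density in the 19 genes was 25.8 peaks per Mb in clone 2, against 4.68 in the 39. In clone 3 it was 1.74 against 0.182 per Mb, and in clone 1 1.13 against 1.64 per Mb. The whole stretch had 3.29, 30.2 and 3.54 per Mb in clones 1, 2 and 3, so its long genes were not denser than the stretch. RPS6KC1, a sphingosine kinase-binding protein of the S6 kinase family, held 1, 39 and 0 peaks in clones 1, 2 and 3. RGS7, a neuronal regulator of G protein signalling, held 1, 32 and 0. RYR2, the calcium release channel of heart muscle, held 0, 20 and 0, and CHRM3, a muscarinic acetylcholine receptor, held 1, 18 and 1. The genes were not alike in clone 2, since DNAH14, an axonemal dynein heavy chain, held 3 peaks and SMYD3, a lysine methyltransferase, held 5, or 0.639 and 0.660 per 100 kb against 5.49 in RGS7.

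The reads behind each peak were solved from the authors' fold and −log10 p, which give whole pile-ups at all peaks (within 0.05 read). From 210 Mb on the median pile-up was 14 reads in clone 2 against 21 before 210 Mb, 13 against 32 in clone 3, and 26 against 27 in clone 1. The local background differed in the same way, with medians of 2.17 against 4.34 reads in clone 2, 2.16 against 9.79 in clone 3 and 6.58 against 6.66 in clone 1. Peaks of 15 reads or fewer were 57.5% against 28.9% in clone 2, 63.0% against 6.86% in clone 3 and 10.9% against 15.7% in clone 1. The lower background belonged to the peaks away from gene ends. At gene ends the ratio of median backgrounds, from 210 Mb on over before, was 0.921 in clone 2 and 1.05 in clone 3, and away from gene ends it was 0.556 and 0.221. Among peaks of −log10 q 5 or above, of which clone 3 had 19 from 210 Mb on, its ratio over all peaks was 0.951. The fold enrichments, being ratios to this background, were not lower in clones 2 and 3. Their medians were 4.38 against 4.10 in clone 2, 4.20 against 3.01 in clone 3 and 3.25 against 3.53 in clone 1. By −log10 q the peaks from 210 Mb on were weaker in all 3 clones. Median −log10 q was 4.15 against 5.25 in clone 2, 3.02 against 3.61 in clone 3 and 4.28 against 5.10 in clone 1. Median widths were 93 against 104 bp, 156.5 against 185 bp and 267 against 261 bp in clones 2, 3 and 1.

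**Figure D2:**
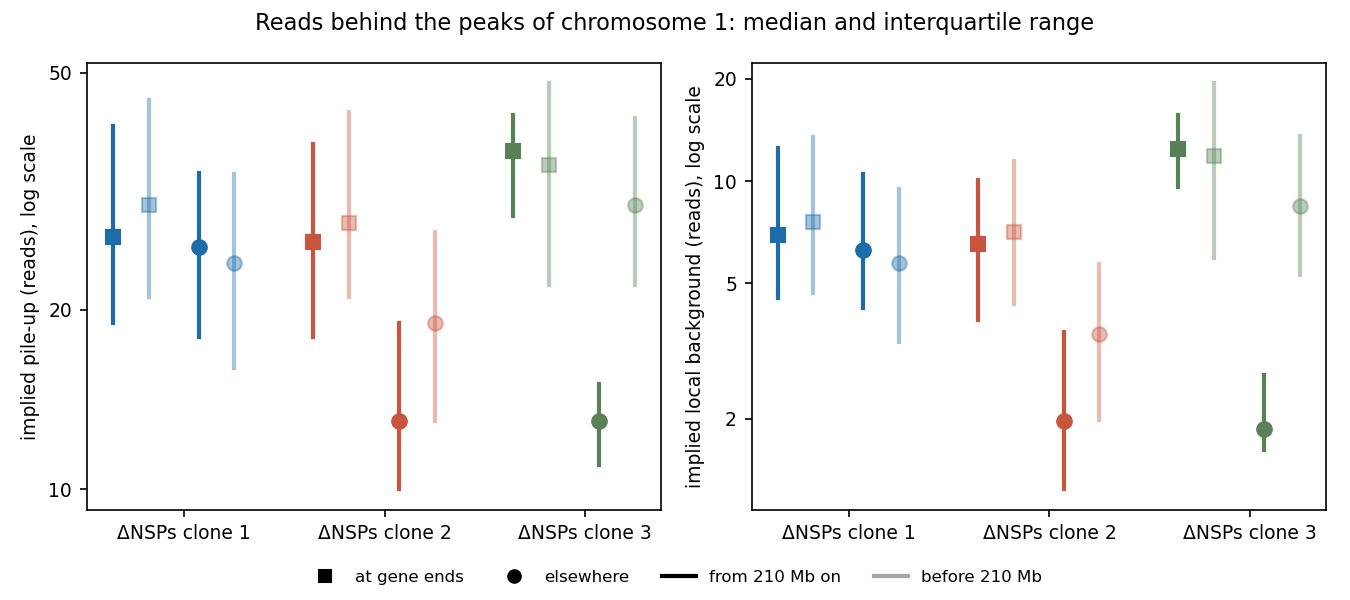
Median (marker) and interquartile range (line) of the implied pile-up (left) and local background (right), in reads on log axes, for chromosome 1 peaks of ΔNSPs clones 1, 2 and 3. Squares are gene-end peaks, circles are peaks elsewhere, full colour is from 210 Mb on and pale colour before it; the circles of clones 2 and 3 from 210 Mb on both have a median of 13 reads, below their pale counterparts at 19 and 30 reads.

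Most of these small peaks were listed in a single clone. Peaks of clone 2 that were away from gene ends and overlapped no other clone numbered 967, or 82.3% of its peaks from 210 Mb on, against 51.3% before. Their median pile-up was 13 reads over a background of 1.97. The same class made up 58.7% of the clone 3 peaks (81 of 138) against 5.39% before, with a median of 12 reads over 1.80. In clone 1 it was 14.8% (19 of 128) against 25.3%. By contrast, shared gene-end peaks had medians of 32, 34 and 38 reads in clones 1, 2 and 3.

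Merging the lists gave 1289 regions from 210 Mb on, of which 105 (8.15%) had a peak in 2 or all 3 clones and 0 had a control peak. Over all 32822 merged regions the share in 2 or all 3 clones without a control peak was 20.9%, and on chromosome 1 before 210 Mb it was 28.6%. Since the stretch was chosen for its peaks by clone, nothing is read from that difference. All 3 clones shared 37 regions, and 51 were in clones 1 and 2 alone, 15 in clones 2 and 3, and 2 in clones 1 and 3. Regions of a single clone numbered 38 (clone 1), 1062 (clone 2) and 84 (clone 3). At gene ends 53 of 170 regions were in 2 or all 3 clones, and elsewhere 52 of 1119. At a −log10 q of 5 or above 32 regions were left in 2 or all 3 clones. Over peaks of any −log10 q, 39 were left when clone 2 was taken out.

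The overlap depended on which list was asked. Of clone 1 peaks from 210 Mb on, 68.8% shared at least 1 bp with clone 2, against 50.7% before, while 8.34% of clone 2 peaks did so with clone 1, against 39.4%. Of clone 3 peaks, 28.3% overlapped clone 1 against 86.8% before, and 37.7% overlapped clone 2 against 78.4%. At gene ends clone 3 stayed close to the other clones, with 83.3% of its 30 peaks in clone 1 and 86.7% in clone 2. Away from gene ends the same shares of its 108 peaks were 13.0% and 24.1%, against 78.9% and 81.1% of 95 peaks before 210 Mb. With equally long lists 33.3% of clone 1 peaks and 12.3% of clone 3 peaks overlapped clone 2, and 5.07% of clone 3 peaks overlapped clone 1.

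At shared sites, the median pile-up ratios of clones 2 and 3 over clone 1 were higher from 210 Mb on than before. A shared site needs a peak in both lists of a pair, and these lists chose the stretch. The ratios are therefore not separate from that choice, and as read totals were unknown they have no absolute scale. The median log2 pile-up ratio of clone 2 over clone 1 was 0.16 over 88 sites (interquartile range −0.20 to 0.60), against −0.12 over 729 sites before (−0.48 to 0.27). For clone 3 over clone 1 it was 0.15 over 39 sites (−0.18 to 0.44), against −0.31 over 175 (−0.54 to −0.10). For clone 3 over clone 2 it was 0.06 over 52 sites against −0.04 over 172. The ranges overlapped in each pair, and the sites of a pair share their libraries, so no test was made. On the other chromosomes the medians were −0.07, −0.19 and −0.07. For clone 2 over clone 1 the shift in the median, from 210 Mb on minus before, was 0.52 at gene ends and 0.085 at sites away from them. With the edge at 200 Mb its shift over all sites was 0.039. For clone 3 over clone 1 the shift was 0.61 at gene ends and 0.24 away from them. The log2 background ratio shifted by 0.24 at gene ends for clone 2 over clone 1 and by 0.13 for clone 3 over clone 1. Away from gene ends these background shifts were −0.041 and 0.065. The clone 2 over clone 1 pile-up ratio was −0.43 over 58 sites from 200 to 210 Mb and 0.33 over 13 sites from 210 to 220 Mb. Beyond 220 Mb it was 0.12 over 75 sites. For clone 3 over clone 1 it was −0.16 over 4 sites from 210 to 220 Mb and 0.26 over 35 sites beyond. That pair had no shared site from 200 to 210 Mb. Which library moved cannot be told from a ratio, and the part that local read depth plays in the number of peaks was not tested.

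**Figure D3:**
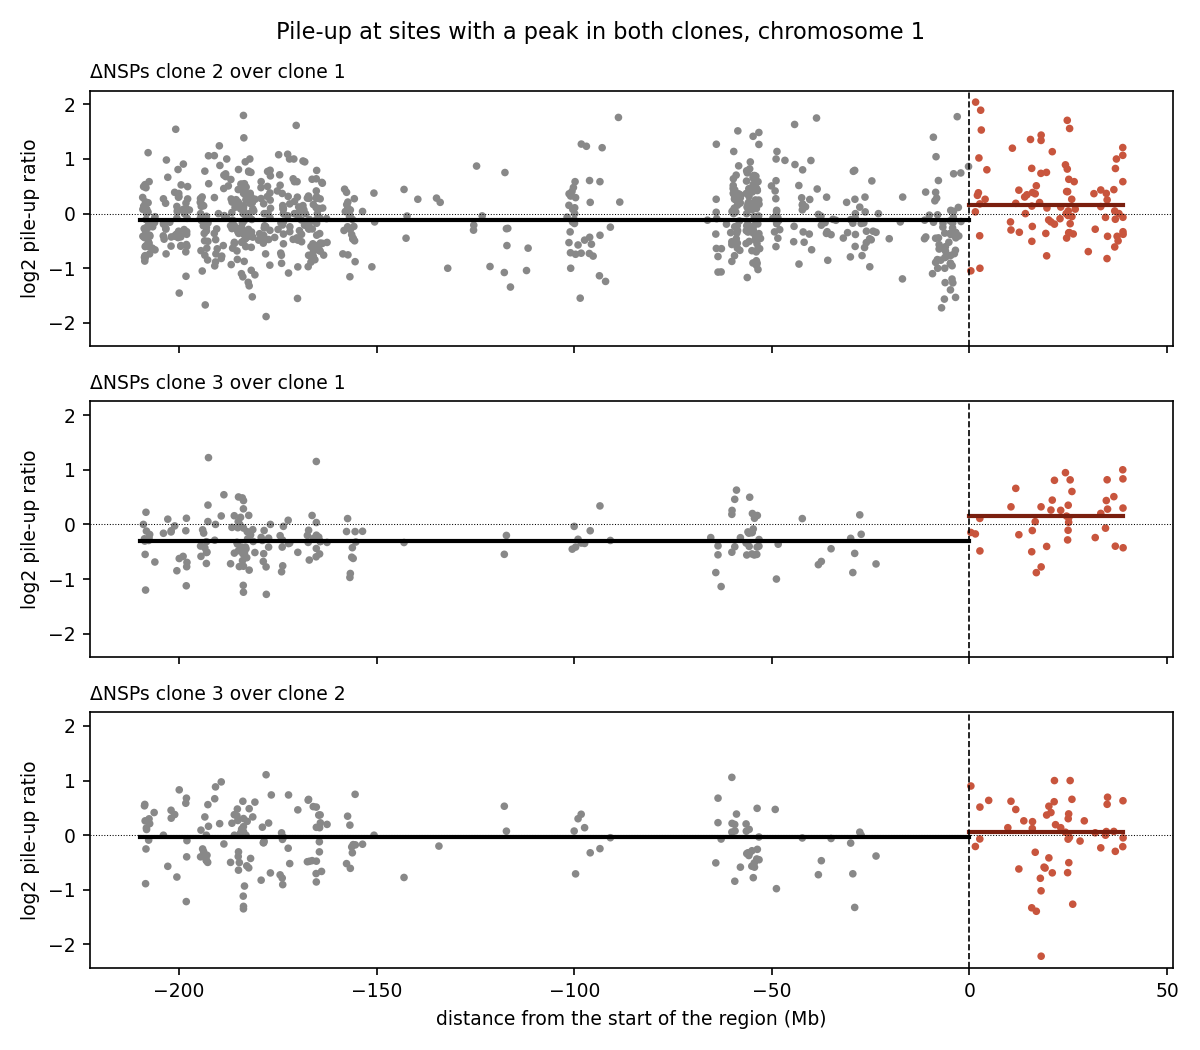
log2 ratio of implied pile-ups at chromosome 1 sites with a peak in both ΔNSPs clones of a pair, against distance in Mb from 210 Mb (dashed line); each point is a site and thick lines are medians on either side. The medians to the right are 0.16 and 0.15 for clones 2 and 3 over clone 1, against −0.12 and −0.31 to the left, and lie near 0 on both sides for clone 3 over clone 2.

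Genes with a gene-end peak in 2 or all 3 clones were about as frequent in the stretch as over the genome, while the shares within single clones differed. Of its 253 protein-coding genes, 65 (25.7%) had a gene-end peak in 2 or all 3 clones, against 26.8% of the 1808 genes before 210 Mb and a background of 23.3% over all 19970 genes, so the share was near the background. Within clones 1, 2 and 3 it was 30.0, 48.2 and 13.4% of the 253 genes, against 39.1, 29.6 and 6.55% of all genes. In all 3 clones 31 genes had one, and in no clone 117. At a −log10 q of 5 or above 22 genes were left in 2 or all 3 clones. A gene-end peak in clone 2 alone was found at 57 genes, in clone 1 alone at 12 and in clone 3 alone at 2. Where the promoter table gives the strand, the peaks used for these genes were at the gene start in 67 of 68 cases in clone 1, 93 of 105 in clone 2 and 25 of 29 in clone 3.

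The 31 genes with a peak in all 3 clones had median pile-ups of 40, 41 and 40 reads in clones 1, 2 and 3. The pile-up of clone 2 exceeded that of clone 1 at 16 of 31 genes, against 35 of 126 such genes before 210 Mb. That of clone 3 exceeded clone 1 at 18 of 31, against 13 of 126. Several of these genes share a peak, and the 31 had 26 separate sets of peaks. The peaks of a gene were not always at one site. Those of clones 1 and 2 did not overlap at RBM34, DUSP10, B3GALNT2 and ZNF692, among others, nor those of clones 1 and 3 at ARID4B and CEP170. At such genes the counts compare pile-ups of different sites.

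IBA57, a factor of mitochondrial iron-sulphur cluster assembly, led the ranking, with folds of 3.96, 6.44 and 2.93 and pile-ups of 48, 130 and 28 reads in clones 1, 2 and 3. Its clone 2 pile-up was the highest among the 31 genes with a peak in all 3 clones, and the clone 2 peak at 228165472 to 228165752 ranked 8 by −log10 q in the whole clone 2 list. HHIPL2 had folds of 3.50, 4.04 and 3.08, with pile-ups of 49, 66 and 43 reads, at its 3′ end (222521512 to 222522001 in clone 1). AHCTF1, which seeds nuclear pore assembly, had folds of 5.25, 3.57 and 2.86, and its clone 1 peak had the highest −log10 q of that clone from 210 Mb on (19.8). DESI2, of a family of deSUMOylating enzymes, had folds of 2.44, 3.59 and 2.74. Its pile-ups were 65, 84 and 88 reads, and its clone 3 peak, at 244652765 to 244653116, ranked 35 in the clone 3 list. COG2, a subunit of a Golgi tethering complex, had folds of 6.21, 4.57 and 3.14. Its clone 2 fold is from a peak at 230642726 to 230642791, outside the promoter window shown. The clone 2 peak in that window is another one, at 230642321 to 230642486.

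The order of the clones was not fixed across these genes. ARV1, a protein of endoplasmic reticulum sterol handling, and TTC13 share a promoter region and its peak, with folds of 2.73, 7.11 and 3.01 and pile-ups of 36, 79 and 49 reads in clones 1, 2 and 3. GUK1, guanylate kinase, had folds of 2.83, 3.92 and 3.33, and COQ8A, of coenzyme Q synthesis, 2.04, 3.88 and 2.61. ABCB10, a transporter of the mitochondrial inner membrane, had pile-ups of 41, 24 and 31 reads, highest in clone 1. PGBD2, a gene derived from a piggyBac transposase, had folds of 3.19, 6.25 and 2.88. ARID4B, a subunit of the SIN3 histone deacetylase complex, had folds of 2.64, 4.14 and 2.56, but its clone 3 peak, at 235328850 to 235329034, did not overlap those used for clones 1 and 2 (235328314 to 235328428 and 235328280 to 235328476).

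The gene lists were chosen with earlier results of these data known, so their counts are given beside the 25.7% of all genes of the stretch and are not tested. Of 13 RNA-binding, splicing and ribosome assembly genes, 8 had a gene-end peak in 2 or all 3 clones, with 10, 9 and 3 in clones 1, 2 and 3. HNRNPU, an RNA-binding protein of the nuclear matrix, had folds of 2.65, 3.65 and 2.39. SRP9, a subunit of the signal recognition particle, had pile-ups of 58, 103 and 41 reads. RBM34 had folds of 4.25, 6.59 and 3.86 from small peaks of 11, 16 and 12 reads, that of clone 2 at the 3′ end and so at a different site. RRP15 and GPATCH2, both in the second 5 Mb step, had no gene-end peak in any clone.

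Of 25 mitochondrial and metabolic genes, 13 had such peaks in 2 or all 3 clones, with 14, 17 and 8 in clones 1, 2 and 3. TOMM20, a receptor of the mitochondrial import machinery, had folds of 2.53, 3.23 and 2.45. TFB2M, a mitochondrial transcription factor whose peak was also counted for CNST, had folds of 1.94, 3.57 and 2.42 and pile-ups of 45, 61 and 64 reads. DEGS1, a ceramide-forming desaturase, had a fold of 4.39 in clone 1 and 3.71 in clone 2. IARS2, the mitochondrial isoleucyl-tRNA synthetase, had none.

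Of 17 cell cycle, replication and DNA repair genes, 8 were marked in 2 or all 3 clones, with 11, 10 and 4 in clones 1, 2 and 3. EXO1, an exonuclease of mismatch repair, had folds of 2.95, 3.09 and 2.5. CEP170 and SDCCAG8, both centrosomal, lie so close that the same peaks were counted for both, with folds of 2.17, 4.19 and 2.81. The clone 3 peak, at 243255297 to 243255446, did not overlap those of clones 1 and 2. NUP133, a nuclear pore scaffold protein, had a fold of 4.41 in clone 1 and 4.43 in clone 2. TP53BP2, a binding partner of p53, had a peak in clone 1 alone, with a fold of 6.55 and 35 reads, and SPRTN, a protease of DNA-protein crosslink repair, likewise with 4.55 and 15 reads in a peak shared with EXOC8. NSL1 and LIN9 had none.

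Of 17 chromatin and transcription genes, 7 were marked in 2 or all 3 clones, with 7, 10 and 1 in clones 1, 2 and 3. IRF2BP2, a transcriptional corepressor, had a fold of 4.25 in clone 1 and 4.22 in clone 2. TAF5L, of the PCAF and SAGA complexes, shared its peak with URB2, a ribosome assembly gene, with folds of 3.77 and 5.06 in clones 1 and 2. Of 16 genes listed under vesicle traffic and Golgi, 7 were marked in this way, with 8, 11 and 4 in clones 1, 2 and 3. B3GALNT2, a glycosyltransferase, was among them with folds of 3.58, 3.42 and 2.62, its clone 2 peak not overlapping those of clones 1 and 3. The list was broad, and the 7 also included TBCE, a tubulin folding cofactor, and TSNAX, a partner of translin. TSNAX had folds of 4.24, 4.82 and 2.66, and ARF1, a GTPase of Golgi vesicle budding, had no peak at its outer ends.

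Of 8 C2H2 zinc finger genes, 2 had a gene-end peak in clone 1, 7 in clone 2 and 1 in clone 3, beside 30.0, 48.2 and 13.4% of all 253 genes, and 2 of 8 had one in 2 or all 3 clones. At ZNF692 the folds were 3.36, 6.06 and 2.17 in clones 1, 2 and 3, the clone 2 peak (248859606 to 248859706) not overlapping the other two, and at ZNF672 they were 3.21 in clone 1 and 5.18 in clone 2. ZNF669 and ZNF124 had one in clone 2 alone, with 32 and 21 reads.

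Of 18 genes listed as immune and signalling, 5 were marked in 2 or all 3 clones, with 5, 8 and 2 in clones 1, 2 and 3. The list was broad, and these 5 included the transporters SLC30A1 and FLVCR1. DUSP10, a phosphatase of stress kinases, had folds of 2.33, 3.76 and 1.78 with pile-ups of 50, 25 and 79 reads, and its clone 2 peak, at 221742914 to 221742977, was at a different site from those of clones 1 and 3. SLC30A1, a zinc exporter, had 26 and 107 reads in clones 1 and 2, and FLVCR1, a choline transporter, 21 and 78 reads. Neither had a gene-end peak in clone 3. CAPN2, a calpain protease, had 10 and 12 reads in clones 2 and 3 at its 3′ end. TRAF5, a signalling adaptor, had none.

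Genes of other tissues were marked in clone 2 no more often than the 48.2% of all 253 genes, and in clones 1 and 3 at 0 or 1 gene per list, against 30.0 and 13.4% of all 253. Muscle and neuronal genes had a gene-end peak at 1, 10 and 1 of 23 in clones 1, 2 and 3, and 1 of 23 in 2 or all 3 clones, which was RGS7 with a fold of 2.60 in clone 1 and 3.23 in clone 2, from peaks that did not overlap. RYR2 had a fold of 4.78 with 67 reads at its start, and ACTN2, a sarcomeric actinin, 3.22 with 27 reads, both in clone 2 alone. Olfactory receptor genes, which start at 247449118, had 0, 11 and 1 of 43 in clones 1, 2 and 3, and 0 of 43 in 2 or all 3 clones. OR14K1 had a fold of 6.78 with 15 reads in clone 2, and OR2L3 a fold of 4.29 with 11 reads in clone 3.

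**Figure D4:**
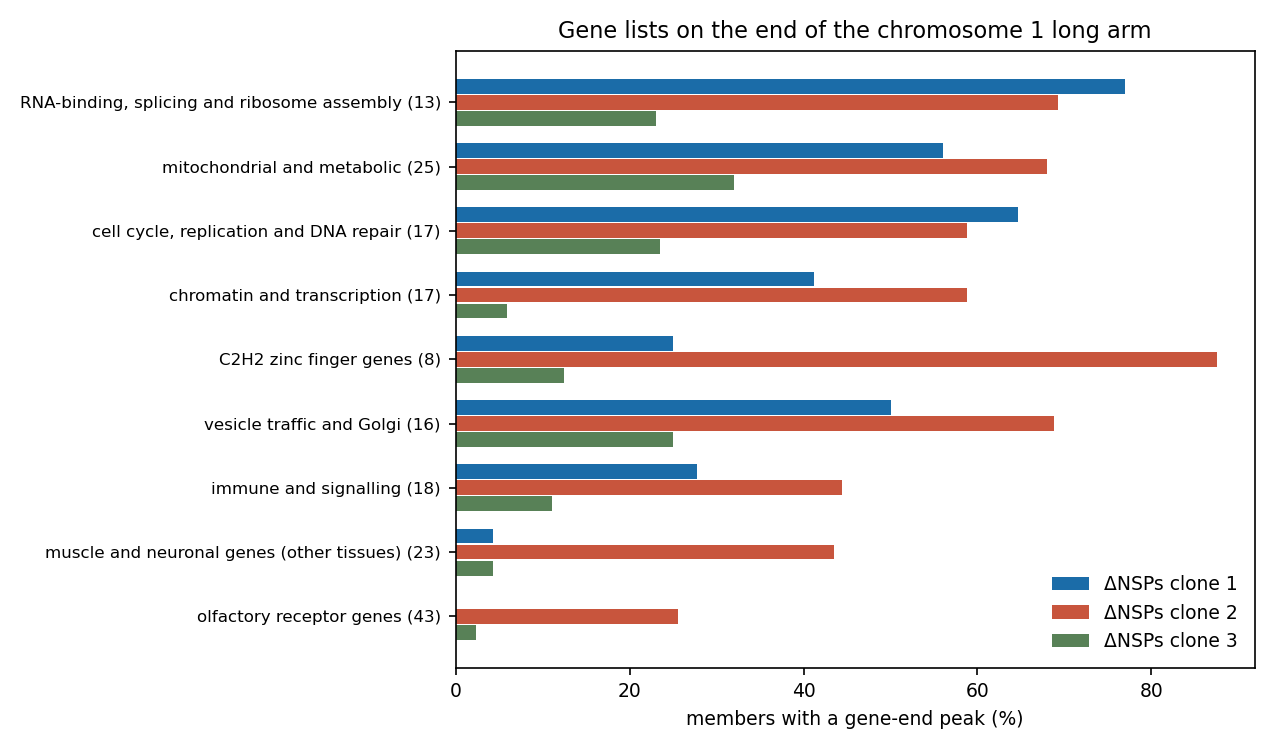
Share in percent of the genes of each list from 210 Mb on (number of genes in brackets) with a gene-end peak in ΔNSPs clones 1, 2 and 3. Clone 2 has a peak at 10 of 23 muscle and neuronal and 11 of 43 olfactory receptor genes, where clones 1 and 3 each have 0 or 1; over all 253 genes the shares are 30.0, 48.2 and 13.4% in clones 1, 2 and 3.

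By −log10 q the highest peak of each clone was a gene-end peak, at AHCTF1, IBA57 and DESI2 in clones 1, 2 and 3. Ranked instead by fold, a ratio to local background, the highest peak of each clone was away from gene ends. By fold, the highest of clone 2 was at 227844671 to 227845201 in the body of PRSS38, a serine protease gene, with a fold of 9.10 and 38 reads, in clone 2 alone. The highest of clone 1 was at 212665342 to 212665657, in a long non-coding RNA gene 20760 bp from BATF3, with a fold of 6.88 and 28 reads, and it overlapped peaks of clones 2 and 3. The highest of clone 3 was at 217753041 to 217753183 in SPATA17, with a fold of 6.54 and 15 reads, in clone 3 alone. A peak between genes at 231460746 to 231460902, 38459 bp from EGLN1, the oxygen-sensing prolyl hydroxylase, was shared by clones 2 and 3, with folds of 6.06 and 6.12 and pile-ups of 17 and 26 reads. Away from gene ends 13 regions were in all 3 clones. The best ranked lay within ITPKB, an inositol trisphosphate kinase, at 226662880 to 226663233, with folds of 3.55, 3.56 and 2.18 and pile-ups of 56, 72 and 58 reads in clones 1, 2 and 3. Another 3 lay between 97107 and 242691 bp from TOMM20. Of 19 miRNA hairpins in the RefSeq table, MIR3124 had a peak within 1000 bp in clones 1 and 2 and MIR1537 in clone 2. MIR3124, at 248826377 to 248826443, lies beside the gene-end peaks already counted for SH3BP5L. These are at 248826016 to 248826301 in clone 1 and 248825947 to 248826073 in clone 2. The share over all hairpins of the genome was not counted, so nothing is read from these hits.

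Promoters with a peak were richer in G and C than those with no peak, whether the peak was shared or not. Of 293 promoter windows from 210 Mb on (217 of 253 genes had an entry), 50 (17.1%) held a peak in 2 or all 3 clones, near the 16.8% of all promoters. Their median GC content was 66.8%, against 68% in the 65 windows with a peak in 1 clone and 56.0% in the 178 windows with no peak, and 66.8% was close to the 65.3% of such windows on chromosome 1 before 210 Mb. GGGCGG was present in 86% of them and in 42.1% of those without a peak, against 56.3% of all promoters. In the same order, TATAAA was present in 4% and 19.7%, against 9.47% of all promoters, and in 3.08% of the windows with a peak in 1 clone. CCGGAAG was present in 20% and 9.55%, against 12.8%, and CCAAT in 38% and 36.0%, against 34.6%. Over the whole genome 3712 promoters had a peak in 2 or all 3 clones. Of these 3712, 23.7% and 49.2% had the last 2 motifs, more than the 20% and 38% in the stretch. CACGTG was present in 8% and 5.06%, against 8.34% of all promoters and 11.6% of the 3712. TGACGTCA was present in 6% and 0%, against 2.26%, and the NRF1 motif in 4% and 1.69%, against 1.5%. The 6% and 4% stand for 3 and 2 of 50 windows, and the shares of the 3712 were 4.39% and 2.96%. For the GC box and the TATA motif the shares of the 3712 were 77.7% and 3.66%. GGGCGG is itself rich in G and C, and a match describes these letters, not binding.

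As a check of the label, 4, 7 and 1 of 12 monocytic marker genes had a gene-end peak in clones 1, 2 and 3, beside 39.1, 29.6 and 6.55% of all genes. Of these, 3 were in 2 or all 3 clones, and SPI1, LYZ, ITGB2 and FCGR1A had none. Of 3 T cell markers CD3E had one in clones 1 and 2, of 3 B cell markers CD79A had one in clone 2, and erythroid, epithelial and fibroblast markers had none. A gene-end peak is no measure of expression, so these counts do not settle the cell type.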

How the data were processed

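ATAC-seq peak lists of 6 U937 libraries were used, with groups from the sample titles. Per the submitters' processing notes MACS2, Bowtie2, Picard and FastQC were used on build GRCh38. Versions, settings and any transposase shift are not given in the sources used. Peaks were called per library, per the peak names. Each list deposited by the authors gives a fold enrichment (a ratio to local background), a −log10 p, a −log10 q and a score per summit; the score was not used. Lines sharing an interval were counted once, with the summit of highest −log10 q.

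Taking the fold as (pile-up + 1) over (background + 1) and p as the upper Poisson tail, both read numbers were solved for each peak. On 1995 simulated peaks 100% of pile-ups were recovered. The simulated peaks were made with the same formulas, so this checks the solving and not whether the formulas hold in the authors' lists. Read totals were unknown. The length of the stretch (38.9 Mb) ran to the highest gene or peak coordinate. Gene ends came from RefSeq (GRCh38.p14, 19970 protein-coding genes, both ends, 1000 bp), which gives no strand; promoter entries gave strands. Peaks per library are given on log10(peaks + 1). A permutation test of them was planned, but its p is not given, since these counts chose the stretch. All values are descriptions of these libraries.

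Genes were named by rule: the 12 of smallest rank sum among genes marked in all 3 clones, the 6 of highest fold in clones 1 and 2 alone, the 4 of highest fold private to each clone, and up to 4 members per list with 2 lacking a peak, from which the text takes examples. The genes named for the second 5 Mb step, long genes, strongest peaks and shared regions away from gene ends were chosen after their values were seen. The members and lists were chosen with earlier results of these data known. Of the listed symbols, C1orf131, H2AW and H2BU1 did not match the gene table in the stretch. Alternatives were a −log10 q of 5 or more, starts at 200 and 220 Mb, every summit line, equal list lengths, other overlaps, merges and windows, each library left out and a replicate block. Equal numbers in both groups have no stated shared batch. Python 3.11.15, NumPy 2.4.6, pandas 2.3.3, SciPy 1.17.1 and matplotlib 3.10.9 were used.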

Additional observations from a re-analysis of the deposited data

How the results depend on the processing

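In every alternative run clones 2 and 3 kept their excess from 210 Mb on and clone 1 its deficit, but the sizes moved. The stretch was chosen by these same peak numbers and the alternatives reuse the same lists, so a kept direction is no separate support. Where no construction explains a move, the cause was not tested. Keeping peaks of −log10 q 5 or above, the share of chromosome 1 peaks was 6.40, 29.2 and 28.8% in clones 1, 2 and 3, the density ratio 0.369, 2.22 and 2.18, the gene-end share 19.1 and 42.1% in clones 2 and 3, and the background ratio of clone 3 0.951. The overlap of clone 1 in clone 2 was then 52.0% and of clone 3 in clone 2 57.9%, with 32 regions and 22 genes in 2 or all 3 clones. With a start at 200 Mb, the share was 17.5% in clone 1 and 41.2% in clone 2, the ratio 0.867, 2.86 and 2.76, the overlap of clone 1 in clone 2 53.3%, and 163 regions were shared. With a start at 220 Mb the share was 25.7 and 24.0% in clones 2 and 3, the ratio 0.580, 2.63 and 2.40, the gene-end share 16.3 and 35.4%, and the overlap of clone 3 in clones 2 and 1 56.1 and 42.7%. Per gene the ratio was 0.637, 4.22 and 4.83. At equal list lengths of 2188 peaks the share was 3.91% in clone 1 and 22% in clone 2, and the overlaps of clone 1 in 2, 3 in 2 and 3 in 1 were 33.3, 12.3 and 5.07%. With a reciprocal overlap of 50% of each peak they were 32.8, 25.4 and 19.6%. With a 2500 bp window the gene-end share of clone 2 was 17.0%. Chosen after seeing the data, leaving out the second 5 Mb step gave a ratio of 2.70 in clone 3. The background ratio at gene ends was 0.921 and 1.05 in clones 2 and 3. For the shared-site shift of clone 2 over clone 1 the values were 0.52 at gene ends, 0.085 elsewhere and 0.039 with a start at 200 Mb, and for clone 3 over clone 1 0.24 away from gene ends.

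Leaving out each library in turn gave 39 to 105 regions and 31 to 65 genes in 2 or all 3 clones, and 2.13 to 2.61 for the log10 difference. Without clone 2 there were 39 regions and 31 genes, and without clone 1 there were 52 and 32, as a site then has to be in both clones that are left. With the replicate block the difference was again 2.44 by construction; the numbers share nothing stated. Since the control counts are all 0, neither value shows stability. Of 54 named genes, 35 were in fewer clones at a −log10 q of 5 or above.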
